A study of Mus musculus with 4 samples.

Results

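The 9 genes described here, Cdkn1a, Mdm2, Ccng1, Pmaip1, Bax, Bbc3, Phlda3, Trp53inp1 and Sesn2, are transcriptional targets of the tumour suppressor p53. They were chosen by gene symbol, each matched 1 row of the count matrices, and together they are 9 of the 31055 genes measured. Single-cell RNA sequencing was carried out on the caudal portion of E8.5 mouse embryos of 2 genotypes, wild-type (WT) and Grhl3-null. Grhl3 encodes a grainyhead-like transcription factor of the surface ectoderm that is needed for closure of the neural tube. The groups differ in the Grhl3 genotype, and no agent was given to either. Cells of 5 WT embryos formed 1 pool and cells of 3 Grhl3-null embryos formed another, and 2 libraries were made from each pool. Libraries of 1 genotype therefore differ as repeated reactions do. Every p-value for a genotype effect below compares 2 pools without a measure of the spread between embryos. Comparisons of groups of cells within libraries use the same 2 pools, and their p-values hold no measure of that spread either.

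p53 is kept at a low level by the ubiquitin ligase Mdm2 and accumulates after DNA damage and other stresses. It then activates genes that halt the cell cycle, genes that trigger apoptosis through the mitochondria, and genes such as Mdm2 that limit p53 itself. In the early mouse embryo the pathway bears on neural tube closure: loss of p53 leads to exencephaly in some embryos, and the neural tube defects of Pax3-deficient embryos are prevented by loss of p53. Each of the 9 genes can also be transcribed without p53, and mRNA levels do not report p53 activity directly.

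After filtering, 20198 of 24239 barcodes were kept, between 4781 and 5459 per library, with library totals of 209833527 to 226723903 unique molecular identifiers (UMIs, 1 per captured mRNA molecule). Levels are given as CPM, the UMIs of a gene scaled to a common total over all genes. They come from 3' tags and are not divided by gene length, so they are compared between cells and not between genes. Grhl3, the gene targeted, was counted 878 and 803 times in WT and 12 and 14 times in Grhl3-null cells, so the target was nearly absent from the libraries labelled Grhl3-null. Cells were grouped into 17 clusters with the p53-related genes left out of the clustering, and 14 clusters took a name from cell type markers. The 14 classes with at least 20 cells in every library are used below, of which 2 had no name. The class that resembles surface ectoderm or the neural plate border is called SE/NPB-like. Between 23.1% and 23.6% of the WT cells were called male from Y-linked transcripts and Xist, against 47.0% and 48.1% of the Grhl3-null cells. Few embryos can carry either sex in a pool, so sex and embryo cannot be told apart, and values within male and female cells are given beside the main results.

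The promoters of 4 genes carry a sequence close to the p53 response element, and these sites are shown because they are the candidate contacts of p53 in these genes. The element consists of 2 decamers of 10 bases, each with a CNNG core, with 0 or 1 base between them. A match was allowed at most 3 mismatches to the 20 bases of the p53 consensus, with the C and G of both cores intact, in RefSeq windows from 250 bases before to 50 bases after each start (GRCm38.p6). The consensus is palindromic, so the search covers both strands. Sites are printed 5' to 3' on the strand of the gene, with the 4 bases of each core in capitals.
Cdkn1a, chr17:29090928-29090947, plus strand: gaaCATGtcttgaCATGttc
Ccng1, chr11:40755462-40755481, minus strand: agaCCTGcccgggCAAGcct
Bax, chr7:45467079-45467099, minus strand: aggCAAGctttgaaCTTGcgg
Bbc3, chr7:16309486-16309505, plus strand: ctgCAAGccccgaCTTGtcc

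The Cdkn1a and Ccng1 sites had 1 mismatch each, the Bax site 2 and the Bbc3 site 3. Relative to the annotated start of the window that held them, their first bases lay at -51 in Cdkn1a, -195 in Ccng1, -201 in Bax and -97 in Bbc3. Cdkn1a and Bbc3 have further annotated starts, whose windows held no site. The other Cdkn1a window (chr17:29093519-29093818) had at least 7 mismatches, and the other Bbc3 windows at least 6 and 8. In GENCODE vM21 (GRCm38) none of the 4 sites overlapped an exon. The Cdkn1a and Ccng1 sites were intergenic, the Bbc3 site lay in an intron of Bbc3, upstream of the transcript used for the window, and the Bax site lay in an intron of the predicted gene Gm45808. Of 32851 promoter windows, 2.82% held such a site, and 0.110% held one with at most 1 mismatch. The windows of Phlda3, Sesn2 and Mdm2 had at least 5, 8 and 9 mismatches and held none, and Pmaip1 and Trp53inp1 had no window in the table. A match is a description of sequence, and p53 binding was not measured.

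The 9 genes differed in how strongly they were patterned by cell class. The ratio of the highest WT class to the median class was 11.9 for Trp53inp1, 11.4 for Pmaip1, 8.26 for Cdkn1a and 7.31 for Phlda3. It was 2.26 for Ccng1, 1.76 for Bbc3, 1.27 for Sesn2, 1.22 for Bax and 1.19 for Mdm2. Over 7763 genes with a mean of at least 10 CPM the median of this ratio was 1.32 and the 95th percentile was 5.05, so 4 members lay above that percentile and Ccng1 and Bbc3 between it and the median. Over all WT cells Trp53inp1, Pmaip1 and Sesn2 had means of 3.57, 9.18 and 6.78 CPM, below the level asked of these reference genes. Their ratios were not set against genes of such lower levels. From the highest to the lowest class, Bbc3 spanned 5.17-fold and Ccng1 3.52-fold. The classes come from clusters of these same cells, so the levels are a description without a test. Phlda3 is also 1 of the 15 markers from which the SE/NPB-like class was named.

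**Figure D1:**
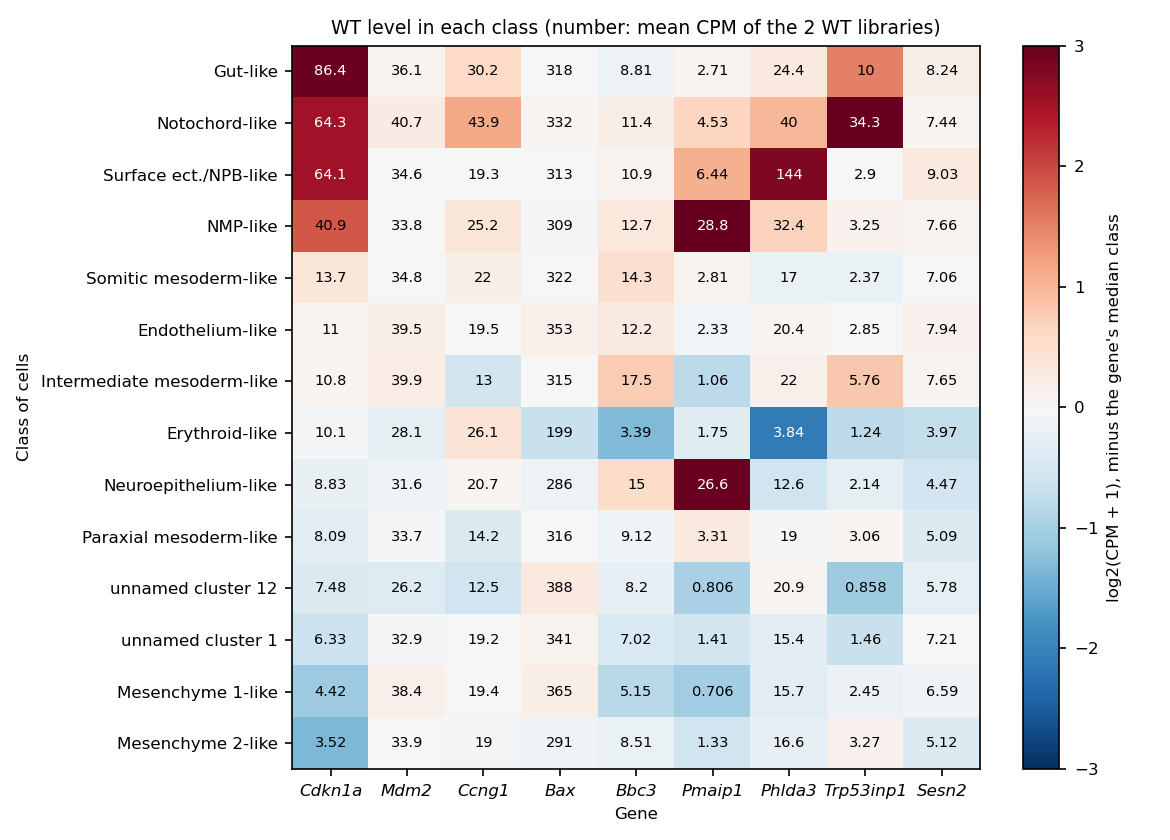
Heat map of the level of each gene (columns) in the 14 classes (rows) of WT cells. The printed number is the mean CPM of the 2 WT libraries and the colour is log2(CPM + 1) minus the gene's median over classes. Cdkn1a is high in 4 classes (86.4 to 40.9 CPM), Pmaip1 in the NMP-like and neuroepithelium-like classes (28.8 and 26.6 CPM), and Phlda3 in the SE/NPB-like class (144 CPM), while Mdm2 and Bax are nearly even.

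Cdkn1a encodes p21, the cyclin-dependent kinase inhibitor that arrests the cell cycle downstream of p53 (chr17:29090976-29100727, plus strand, GRCm38). It was highest in the gut-like class, at 86.6 and 86.1 CPM in the WT libraries and 74.8 and 86.3 CPM in the Grhl3-null libraries. The WT means of the notochord-like class (64.3 CPM ± 13.2, SD, n = 2 libraries) and of the SE/NPB-like class (64.1 CPM ± 3.57) did not differ beyond their spread. Neuromesodermal progenitor (NMP)-like cells, the bipotent cells of the tail end, followed with 40.9 CPM ± 2.55. The remaining 10 classes had WT means from 13.7 CPM in the somitic mesoderm-like class down to 3.52 CPM in the mesenchyme 2-like class, and each of them overlapped its neighbour in this order. With every cell thinned to 7500 UMIs, Cdkn1a was detected in 37.3% of gut-like cells of WT library 1 (95% Clopper-Pearson interval, lower bound 31.6%) and in 1.63% of its mesenchyme 2-like cells. Before thinning these shares were 76.7% and 6.99%, at median depths of 41812 and 31043 UMIs per cell. Intervals on shares cover counting error only.

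Of the genes that restrain p53, Mdm2 encodes its ubiquitin ligase and Ccng1 encodes cyclin G1, which acts with the phosphatase PP2A on Mdm2. Mdm2 (chr10:117688875-117710758, minus strand) ranged from 26.2 CPM in unnamed cluster 12 to 40.7 CPM in the notochord-like class, and each class overlapped its neighbour in the WT order. Ccng1 (chr11:40748552-40755311, minus strand) was highest in the notochord-like class, with 45.3 and 42.5 CPM in the WT libraries, above the 32.9 and 27.5 CPM of the gut-like class. Its lowest mean was in unnamed cluster 12, at 12.5 CPM ± 1.68 (SD, n = 2), which overlapped the intermediate mesoderm-like class (14.1 and 11.9 CPM).

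Among the apoptosis genes, Pmaip1 encodes Noxa, a BH3-only protein that neutralises Mcl1. It was highest in caudal neural progenitors, with 28.5 and 29.1 CPM in NMP-like and 27.4 and 25.8 CPM in neuroepithelium-like cells of the WT libraries. The third class, SE/NPB-like, had 7.44 and 5.43 CPM, and the WT means of the lowest 10 classes were 3.31 CPM or less. Phlda3 (chr1:135766119-135769136, plus strand) encodes a pleckstrin homology domain protein that competes with Akt for membrane lipids. Its level in the SE/NPB-like class was 132 and 156 CPM in the WT libraries and 145 and 155 CPM in the Grhl3-null libraries, 3.60 times the second class in WT. It was detected in 44.2% and 60.4% of those WT cells at 7500 UMIs per cell, against 1.47% and 8.00% of erythroid-like cells. At full depth these shares were 84.3% and 90.8% against 4.41% and 8.00%.

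Bax (chr7:45461697-45466898, minus strand), which permeabilises the mitochondrial outer membrane, was present in every class, from 199 CPM in erythroid-like cells to 388 CPM in unnamed cluster 12. Bbc3 (chr7:16308393-16318205, plus strand) encodes Puma, a BH3-only activator of Bax. It was highest in the intermediate mesoderm-like class, at 17.5 CPM ± 0.94, and lowest in erythroid-like cells, at 3.39 CPM ± 0.19 (SD, n = 2). Trp53inp1 (chr4:11156431-11174379, plus strand), a stress-induced protein that promotes autophagy and p53 activation, was highest per cell in the notochord-like class. Notochord-like cells had 40.3 and 28.3 CPM in the WT libraries and 40.0 and 30.3 CPM in the Grhl3-null libraries, and the gut-like class came second with 10.2 and 9.90 CPM in WT. Notochord-like cells held 11.9% of the WT Trp53inp1 UMIs, less than the larger gut-like (17.3%) and NMP-like (15.5%) classes. Sesn2 (chr4:132492032-132510501, minus strand), which restrains mTORC1 under stress, lay between 3.97 CPM in erythroid-like and 9.03 CPM in SE/NPB-like cells.

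The genes with the most similar pattern over the 14 classes were found by Pearson's r on log2(CPM + 1) among 7793 genes. The points share libraries and the clustering, and r is given as a description. Cdkn1a ran closest to the epithelial junction genes Cldn6 (r = 0.94) and Cdh1 (r = 0.92) and to Gpbp1l1 (r = 0.91). Pmaip1 ran closest to the neural progenitor transcription factors Sox2 (r = 0.95), Hes3 (r = 0.93) and Sox3 (r = 0.93). Phlda3 ran closest to the surface ectoderm ligand gene Wnt6 (r = 0.89), with Dtx2 and Tmem120a at the same value. Trp53inp1 ran closest to the notochord signal gene Shh (r = 0.94), then Gramd3 (r = 0.90) and Wwp2 (r = 0.88). Rrbp1, Rock1 and Top2a were closest to Mdm2, Smg9, Ndufc2 and Rint1 to Ccng1, and Ppp1ca, Gng5 and Pqbp1 to Bax. Chmp1b, Mapk12 and Sall2 were closest to Bbc3, and Plp2, Lxn and Ebpl to Sesn2. None of these 27 genes is itself a member.

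The first comparison asked whether the 9 genes differ between the genotypes over all cells. A sum over a library cannot tell fewer cells of a type from less RNA per cell. Cdkn1a, Pmaip1, Phlda3 and Bax fell in Grhl3-null embryos, and no member changed by a log2 fold change of 1 or more. Pmaip1 was measured at 9.28 and 9.09 CPM in the WT libraries and 6.77 and 6.64 CPM in the Grhl3-null libraries. The groups did not overlap, and the log2 fold change was -0.48 ± 0.04 (SE, edgeR quasi-likelihood test, Benjamini-Hochberg adjusted p = 0.0001). Cdkn1a was at 23.0 and 23.3 CPM in WT and 17.9 and 19.8 CPM in Grhl3-null, again without overlap, with a log2 fold change of -0.33 ± 0.04 (edgeR adjusted p = 0.00084).

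Phlda3 was at 26.5 and 28.2 CPM in WT and 22.3 and 23.3 CPM in Grhl3-null, and its log2 fold change was -0.29 ± 0.03 (edgeR adjusted p = 0.00068). Bax was at 310 and 324 CPM against 290 and 301 CPM, with a log2 fold change of -0.13 ± 0.03 (edgeR adjusted p = 0.0075). Mdm2 rose by 0.07 ± 0.02 on the log2 scale, from 33.6 and 34.8 CPM to 36.3 and 36.9 CPM (edgeR adjusted p = 0.044). That call was lost without WT library 1 (0.05), without Grhl3-null library 1 (0.08), without Grhl3-null library 2 (0.065) and with DESeq2 (adjusted p = 0.21). Ccng1 (log2 fold change -0.05), Bbc3 (-0.06), Trp53inp1 (0.01) and Sesn2 (-0.06) did not pass the test. In all, 5 of 9 members were called, 4 lower and 1 higher, where 35.5% of the 17168 genes tested were called, 18.5% lower and 17.1% higher, so the number called is not a result about the members.

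**Figure D2:**
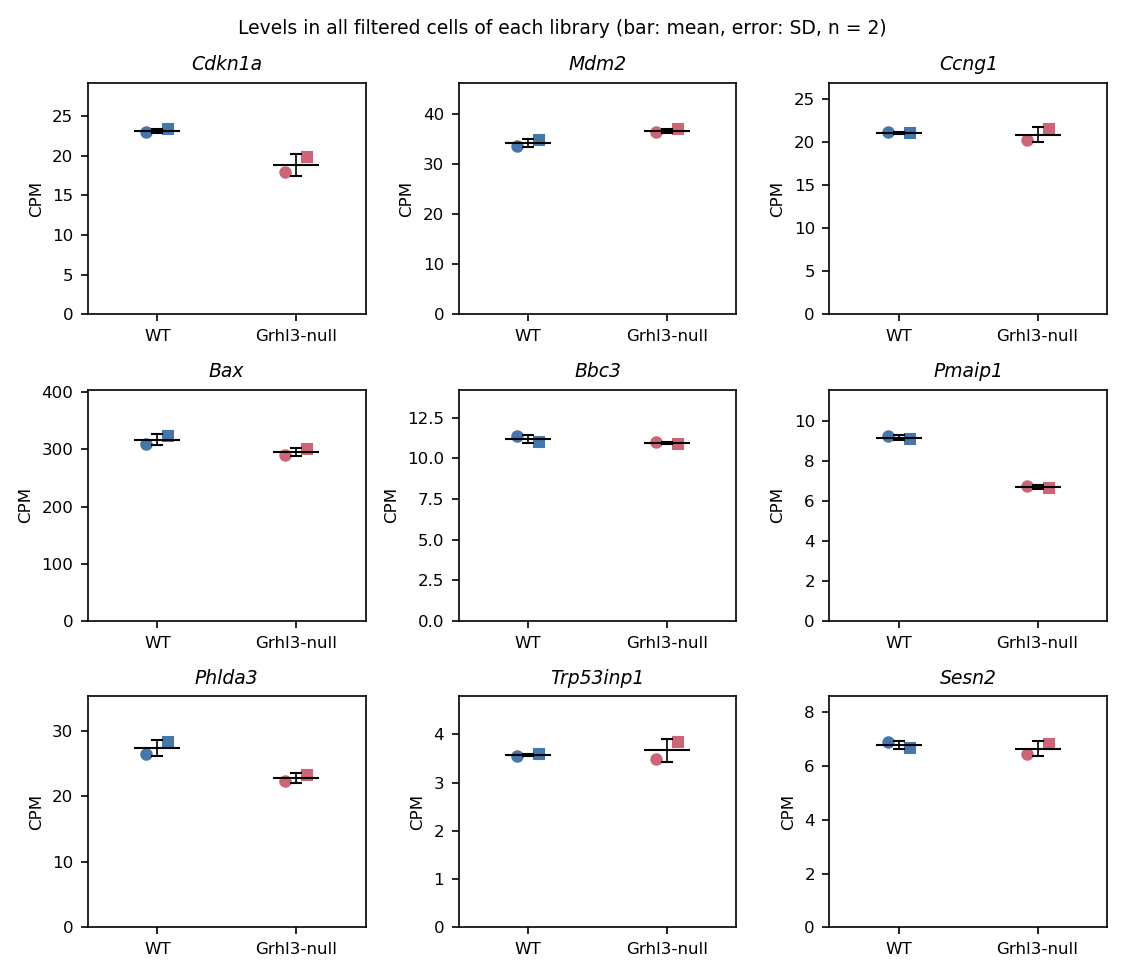
Level in CPM (vertical axis, from 0) of the 9 genes over all filtered cells of each WT (blue) and Grhl3-null (red) library, with the mean and SD of the 2 libraries (circle, replicate 1, and square, replicate 2). Pmaip1, Cdkn1a, Phlda3 and Bax lie lower in both Grhl3-null libraries, and Mdm2 slightly higher (36.3 and 36.9 against 33.6 and 34.8 CPM).

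With the class levels of every library weighted by the WT class shares, the log2 ratio of the genotypes was -0.31 for Cdkn1a, -0.41 for Pmaip1, -0.26 for Phlda3 and -0.10 for Bax, close to the unweighted ratios of -0.30, -0.45, -0.26 and -0.10. The split by sex moved the values further. Among male cells Cdkn1a was at 25.5 and 25.1 CPM in WT and 17.2 and 18.9 CPM in Grhl3-null, a log2 fold change of -0.49 ± 0.05 (edgeR adjusted p = 8.1e-05). Among female cells it was at 22.7 and 23.5 against 21.97 and 24.9 CPM, with overlap and a log2 fold change of -0.01 ± 0.05 (edgeR adjusted p = 0.93).

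Phlda3 turned direction between the sexes. In male cells it was at 22.5 and 25.0 CPM in WT and 27.7 and 27.1 CPM in Grhl3-null, and rose by 0.20 ± 0.05 on the log2 scale (edgeR adjusted p = 0.0099). In female cells it was at 28.2 and 30.6 against 19.96 and 23.0 CPM, and fell by 0.48 ± 0.06 on the log2 scale (edgeR adjusted p = 0.00029). Pmaip1 fell in both, by 0.47 in male and by 0.38 in female cells on the log2 scale (edgeR adjusted p = 0.0013 and 0.00097). A test of the difference between the sexes, added after these values were seen, gave 0.69 ± 0.06 for Phlda3 and -0.49 ± 0.05 for Cdkn1a (log2, male minus female, edgeR adjusted p = 1.5e-06 and 5.9e-06), where 37.5% of 16165 genes were called. Bax (-0.16), Ccng1 (-0.16) and Bbc3 (0.22) were called in the same test. Bax was at 329 and 345 CPM in WT and 285 and 296 CPM in Grhl3-null male cells, without overlap, and at 298 and 311 against 291 and 303 CPM in female cells, with overlap. Bbc3 fell in female cells alone, from 11.5 and 11.1 to 10.3 and 10.03 CPM (log2 fold change -0.17 ± 0.05, edgeR adjusted p = 0.019), and had a log2 fold change of 0.05 in male cells that did not pass the test.

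The second comparison asked in which cell classes the genes differed between the genotypes. Over the 14 classes, 120 pairs of a member and a class were tested, of which 19 were called lower and 4 higher in Grhl3-null cells. Over all genes and classes 12.1% of pairs were called, 6.44% lower and 5.62% higher. Cdkn1a had a log2 fold change below 0 in all 14 classes and fell in 7 of them, and Phlda3 fell in 6 and rose in 1. Bax fell in 4 classes and Pmaip1 in 2, Mdm2 rose in 2 and Sesn2 in 1, and Ccng1, Bbc3 and Trp53inp1 were called in none of the 14, 14 and 12 classes in which they were tested.

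**Figure D3:**
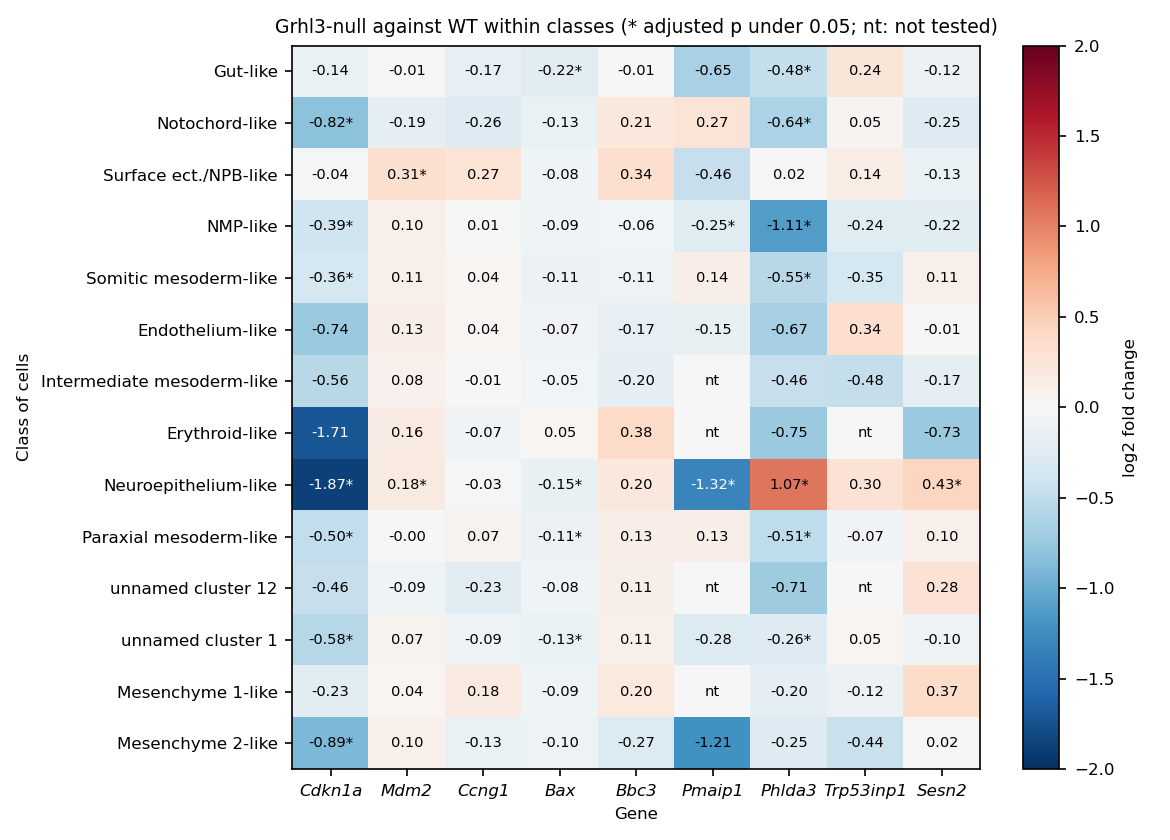
Log2 fold change of Grhl3-null against WT cells (colour and number) for each gene (columns) and class (rows, in the order of the WT Cdkn1a level). An asterisk marks an edgeR adjusted p under 0.05 and nt a gene left out by the filter on low counts. The Cdkn1a column is negative in all 14 classes, and Phlda3 is -1.11 in the NMP-like and 1.07 in the neuroepithelium-like class.

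The largest called changes of Cdkn1a and Pmaip1 lay in the neuroepithelium-like class, the cells of the forming neural plate and tube, where 6 of 9 members were called against 25.6% of 12849 genes. Cdkn1a was at 10.3 and 7.38 CPM in the WT libraries and 2.32 and 2.62 CPM in the Grhl3-null libraries. The groups did not overlap, and the log2 fold change was -1.87 ± 0.17 (SE, edgeR quasi-likelihood test, adjusted p = 3e-08). Pmaip1 was at 27.4 and 25.8 CPM in WT and 11.7 and 10.1 CPM in Grhl3-null, and fell by 1.32 ± 0.08 on the log2 scale (edgeR adjusted p = 4.2e-11). Phlda3 moved the other way, from 13.2 and 12.1 CPM in WT to 25.5 and 28.8 CPM in Grhl3-null, a log2 fold change of 1.07 ± 0.08 (edgeR adjusted p = 1.1e-09). Smaller calls were made for Bax (-0.15), Mdm2 (0.18) and Sesn2 (0.43), all on the log2 scale. Each of these 3 was lost without a library: Bax without WT library 2 (-0.12), Mdm2 without WT library 1 (0.13) or Grhl3-null library 1 (0.12), and Sesn2 without WT library 1 (0.34) or Grhl3-null library 2 (0.36).

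The make-up of the neuroepithelium-like class differed between the genotypes. With a finer clustering, at resolution 0.8 instead of 0.4, 45.03% and 48.5% of its WT cells fell into a separate cluster without a name, against 0.177% and 0.323% of its Grhl3-null cells. In that cluster the WT libraries had 19.3 and 13.04 CPM of Cdkn1a, 47.3 and 42.2 CPM of Pmaip1 and 9.80 and 10.5 CPM of Phlda3. The neuroepithelium-like class at resolution 0.8 had 290 and 261 WT cells and 610 and 653 Grhl3-null cells. Of these, 257 and 221 WT and 564 and 617 Grhl3-null cells were in the class at resolution 0.4, and the rest came from other classes. In the class at resolution 0.8, Cdkn1a was at 3.30 and 3.12 CPM in WT and 2.29 and 3.12 CPM in Grhl3-null. Its log2 fold change there was -0.26 ± 0.22 and did not pass the test (edgeR adjusted p = 0.57), nor did that of Pmaip1 (-0.22 ± 0.11, edgeR adjusted p = 0.31). Phlda3 still rose, by 0.70 ± 0.09 on the log2 scale (edgeR adjusted p = 7.8e-05).

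Marker levels in the class moved too. The summed level of 15 neuroepithelium markers was 4293 and 4302 CPM in WT and 5705 and 5829 CPM in Grhl3-null, with 12 of 15 genes higher in both Grhl3-null libraries. That of 15 pre-somitic mesoderm markers was 502 and 490 CPM in WT and 268 and 252 CPM in Grhl3-null, with 13 of 15 lower. Most WT cells of the class were female (420 and 370 cells, against 40 and 42 male) and most Grhl3-null cells were male (390 and 450 cells, against 84 and 75 female). In female cells Cdkn1a was at 11.5 and 8.28 CPM in WT and 3.36 and 5.58 CPM in Grhl3-null, a log2 fold change of -1.22 ± 0.29 (edgeR adjusted p = 0.0039). In male cells it was at 2.70 and 1.67 against 1.90 and 2.07 CPM, which overlapped (edgeR adjusted p = 0.97). Phlda3 rose in female cells of the class, from 12.1 and 13.4 to 44.5 and 40.9 CPM (log2 fold change 1.71 ± 0.12, edgeR adjusted p = 2.8e-09). In male cells it was at 26.5 and 6.69 CPM in WT, on 49 and 16 UMIs, and 23.2 and 27.1 CPM in Grhl3-null, which overlapped (log2 fold change 0.75 ± 0.29, edgeR adjusted p = 0.13). Pmaip1 fell in female cells, from 30.2 and 28.9 to 18.5 and 22.3 CPM (log2 fold change -0.58 ± 0.12, edgeR adjusted p = 0.0014). In male cells it was at 11.9 and 12.6 against 9.88 and 7.501 CPM (-0.46 ± 0.25, edgeR adjusted p = 0.30). The difference between the sexes was -0.98 ± 0.35 for Phlda3 (log2, male minus female, edgeR adjusted p = 0.045), where 21.9% of genes were called. The part of this make-up in the changes of Cdkn1a, Pmaip1 and Phlda3 was not tested beyond these splits.

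In NMP-like cells 3 of 9 members fell and none rose, against 17.7% of 13698 genes called. Phlda3 was at 29.1 and 35.7 CPM in WT and 13.5 and 16.8 CPM in Grhl3-null, and fell by 1.11 ± 0.10 on the log2 scale (edgeR adjusted p = 4.8e-05). Cdkn1a was at 39.1 and 42.7 against 29.4 and 33.5 CPM, with a log2 fold change of -0.39 ± 0.06 (edgeR adjusted p = 0.00083). Pmaip1 was at 28.5 and 29.1 against 23.9 and 25.1 CPM, with a log2 fold change of -0.25 ± 0.04 (edgeR adjusted p = 0.0027). None of these 3 genes, picked by their calls, overlapped between the genotypes, and the share of all genes without overlap was not counted.

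The fall of Phlda3 in NMP-like cells lay in the female cells. These had 37.3 and 43.5 CPM in WT and 11.4 and 13.9 CPM in Grhl3-null, a log2 fold change of -1.72 ± 0.09 (edgeR adjusted p = 4.7e-08). Male cells had 18.4 and 23.6 against 17.1 and 21.3 CPM, with overlap (log2 fold change -0.12 ± 0.12, edgeR adjusted p = 0.7). The test of the difference between the sexes gave 1.59 ± 0.12 (log2, male minus female, edgeR adjusted p = 5.1e-12), where 14.5% of genes were called, and it called Bbc3 as well (-0.44, edgeR adjusted p = 0.049). Bbc3 was at 12.9 and 15.98 CPM in WT and 12.1 and 10.8 CPM in Grhl3-null male cells of the class, and at 10.7 and 12.5 against 13.2 and 12.5 CPM in female cells. Cdkn1a and Pmaip1 were not called in the male cells of this class either (-0.21 and -0.15).

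The SE/NPB-like class, which takes its identity from the tissue in which Grhl3 acts, showed no change in Cdkn1a or Phlda3 that passed the test. Cdkn1a was at 61.6 and 66.6 CPM in WT and 59.2 and 69.0 CPM in Grhl3-null, and Phlda3 at 132 and 156 against 145 and 155 CPM. Both overlapped, with log2 fold changes of -0.04 and 0.02 that did not pass the test. Mdm2 rose, from 34.4 and 34.9 CPM to 44.2 CPM in both Grhl3-null libraries, by 0.31 ± 0.07 on the log2 scale (edgeR adjusted p = 0.0066), where 13.8% of 12531 genes were called. Without Grhl3-null library 1 that value was 0.31 with an edgeR adjusted p of 0.052. Neither sex alone passed the test, with 0.36 ± 0.12 in male and 0.14 ± 0.10 in female cells (edgeR adjusted p = 0.057 and 0.41).

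Within this class the sexes again differed in direction. Phlda3 was at 114 and 158 CPM in WT and 172 and 173 CPM in Grhl3-null male cells, and rose by 0.35 ± 0.10 on the log2 scale (edgeR adjusted p = 0.015). In female cells it was at 141 and 157 against 112 and 142 CPM, with a log2 fold change of -0.30 ± 0.08 (edgeR adjusted p = 0.023), although 1 Grhl3-null library lay above 1 WT library. Cdkn1a fell in male cells, from 77.2 and 72.4 to 51.2 and 63.3 CPM (log2 fold change -0.39 ± 0.11, edgeR adjusted p = 0.016). In female cells it was at 57.3 and 67.3 against 70.0 and 76.1 CPM (0.17 ± 0.09, edgeR adjusted p = 0.21). The differences between the sexes were 0.66 for Phlda3 and -0.56 for Cdkn1a (log2, male minus female, edgeR adjusted p = 9.3e-06 and 0.0023), where 13.3% of genes were called.

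**Figure D4:**
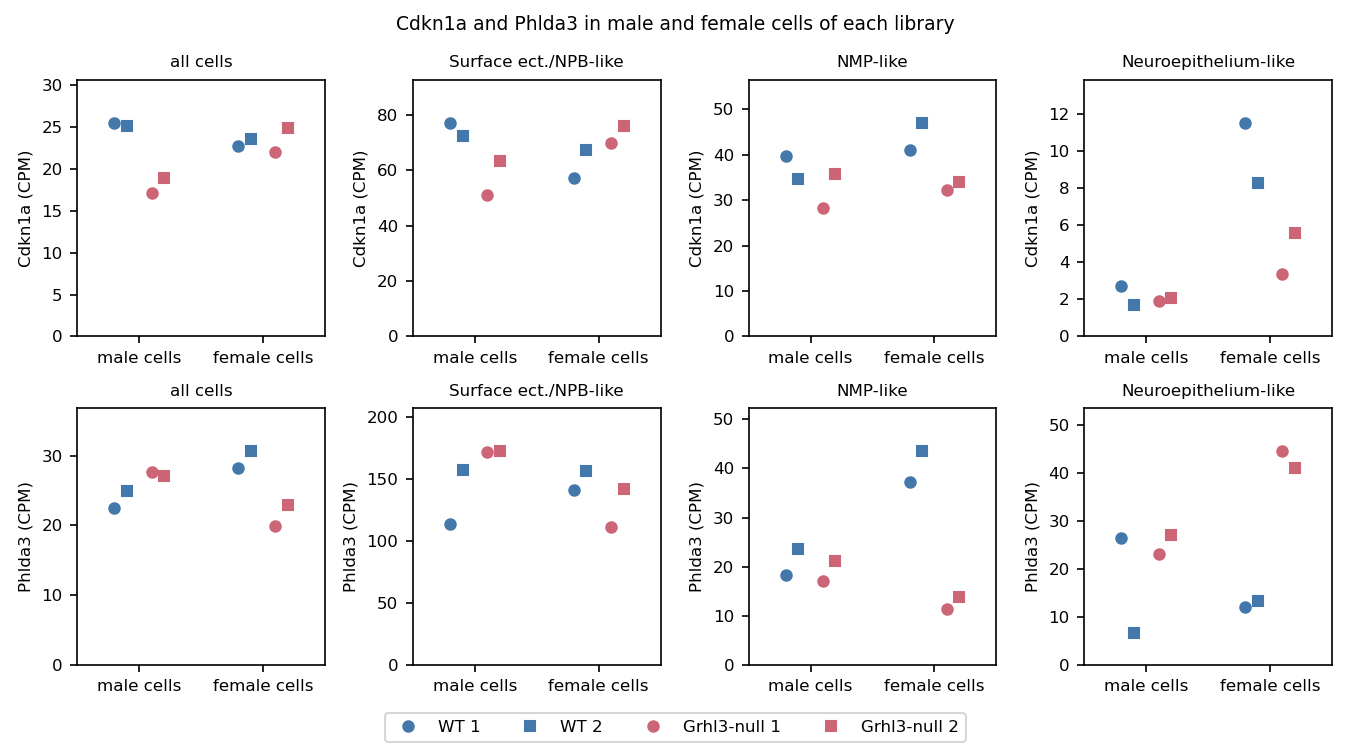
Level in CPM (vertical axes, from 0) of Cdkn1a (top) and Phlda3 (bottom) in male and female cells of each library, over all cells and in 3 classes. In NMP-like female cells Phlda3 is lower in both Grhl3-null libraries (11.4 and 13.9 against 37.3 and 43.5 CPM), while in male cells the genotypes overlap, and in neuroepithelium-like female cells it is higher (44.5 and 40.9 against 12.1 and 13.4 CPM).

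Of the other classes, notochord-like cells had lower Cdkn1a, from 73.6 and 55.0 CPM in WT to 30.9 and 40.5 CPM in Grhl3-null (log2 fold change -0.82 ± 0.16, edgeR adjusted p = 0.0019, with 4.41% of genes called in the class). With doublets removed this call was lost (-0.64, edgeR adjusted p = 0.076). In the same class the summed level of 15 gut markers was 2173 and 2085 CPM in WT and 1556 and 1656 CPM in Grhl3-null, that of 15 pre-somitic mesoderm markers 1921 and 1763 against 1260 and 1185 CPM, and that of 11 dissociation genes 400.0 and 373 against 266 and 280.4 CPM. Their part in the fall was not tested. Paraxial mesoderm-like cells had lower Cdkn1a (log2 fold change -0.50) and Phlda3 (-0.51), where 21.8% of genes were called. Gut-like cells had lower Phlda3 (-0.48) and Bax (-0.22), where 19.5% were called, while Cdkn1a was not called in them (-0.14). Phlda3 also fell in somitic mesoderm-like (-0.55), notochord-like (-0.64) and unnamed cluster 1 cells (-0.26), classes in which 12.2%, 4.41% and 10.3% of genes were called. Cdkn1a also fell in somitic mesoderm-like (-0.36), mesenchyme 2-like (-0.89, where 20% of genes were called) and unnamed cluster 1 cells (-0.58), and Bax in paraxial mesoderm-like (-0.11) and unnamed cluster 1 cells (-0.13).

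Several of these weaker calls were lost without a single library or within a sex. Of the 21 called pairs that could be fitted in each sex, 6 were called in the same direction in male and 10 in female cells. The share of all genes called in these fits was not counted. They use fewer cells, such as 59 and 57 WT male cells in the paraxial mesoderm-like class. A lost call therefore does not show that an effect is absent in that sex. Phlda3 in the gut-like class was not called in male cells (-0.11), in the paraxial mesoderm-like class not in female cells (-0.31), and in the somitic mesoderm-like class in neither (-0.40 and -0.47). Cdkn1a in the paraxial mesoderm-like class was called in neither (-0.51 in male and -0.94 in female cells). Bax was not called without either WT library or Grhl3-null library 1 in the paraxial mesoderm-like class (-0.13, -0.11 and -0.089) and in unnamed cluster 1 (-0.15, -0.12 and -0.096). Cdkn1a in the somitic mesoderm-like class was not called without WT library 2 (-0.21) or Grhl3-null library 1 (-0.29), in the mesenchyme 2-like class without WT library 2 (-0.70) or Grhl3-null library 1 (-0.58), and in unnamed cluster 1 without WT library 1 (-0.44). Phlda3 in the notochord-like class was not called without WT library 1 (-0.48) or either Grhl3-null library (-0.75 without the first, -0.52 without the second). In unnamed cluster 1 Phlda3 was not called without WT library 1 (-0.16) or Grhl3-null library 1 (-0.22), and it turned direction between male (0.61) and female cells (-0.75).

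The next comparison tested whether the effect of the genotype in a class differed from that in the other cells. The other cells were 1 sum per library, and their make-up differed between the genotypes. Pre-somitic mesoderm-like cells, for example, were 9.27% and 9.62% of WT and 0.0826% and 0.0837% of Grhl3-null cells. The part of this make-up was not tested. A positive difference can go with a fall within the class, as for Pmaip1 in the NMP-like class. Of 126 pairs of a member and a class, 12 were called higher and 6 lower, where 5.89% of all pairs were called, 3.25% higher and 2.64% lower. In the neuroepithelium-like class, where 12.9% of genes were called, the difference was 1.47 ± 0.08 for Phlda3, -1.61 ± 0.17 for Cdkn1a and -1.002 ± 0.10 for Pmaip1 on the log2 scale (edgeR adjusted p = 5.7e-19, 2.1e-10 and 2.5e-11). In the NMP-like class, where 11.3% were called, it was -0.95 ± 0.06 for Phlda3 (edgeR adjusted p = 5.2e-52) and 0.37 ± 0.08 for Pmaip1 (edgeR adjusted p = 0.00012). Smaller calls were made for Sesn2 (0.53) and Bbc3 (0.34) in the neuroepithelium-like class. Cdkn1a was higher relative to the other cells in the gut-like class, by 0.38 ± 0.06 on the log2 scale (edgeR adjusted p = 3.8e-05), where 9.6% of genes were called, and Bax was lower (-0.12). In the paraxial mesoderm-like class, where 10% were called, the difference was 0.63 for Pmaip1 and -0.25 for Phlda3. Cdkn1a was lower in the notochord-like class (-0.55, where 1.49% were called), and Pmaip1 higher in the mesenchyme 1-like class (2.17 ± 0.66, edgeR adjusted p = 0.029, where 3.98% were called), the class with its lowest WT level. That value rests on 2 UMIs in each WT library against 20 and 13 UMIs in Grhl3-null. The Pmaip1 call in the mesenchyme 1-like class was lost without any 1 library (1.86 to 2.40). The notochord-like Cdkn1a call was lost without WT library 1 (-0.30) or either Grhl3-null library (-0.44 and -0.65), and the paraxial Phlda3 call without either WT library (-0.23 and -0.27) or Grhl3-null library 1 (-0.14). Sesn2 was lost without WT library 1 (0.41) or Grhl3-null library 2 (0.47), Bbc3 without WT library 2 (0.31) or Grhl3-null library 2 (0.12), and Bax in the gut-like class without WT library 2 (-0.11) or either Grhl3-null library (-0.13 and -0.10).

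In the SE/NPB-like class 5 of 9 members were called higher relative to the other cells and none lower, where 9.11% of 16502 genes were called. The differences were 0.43 for Phlda3, 0.32 for Cdkn1a, 0.42 for Bbc3, 0.33 for Ccng1 and 0.24 for Mdm2 on the log2 scale. For Phlda3 and Cdkn1a they meet a fall in the other cells with little change in the class itself. The Cdkn1a call was lost without Grhl3-null library 2 (0.29, edgeR adjusted p = 0.091). Those of Bbc3 (0.31 to 0.50) and Mdm2 (0.23 to 0.25) were lost without any 1 library, and that of Ccng1 (0.23 to 0.36) without WT library 1 or either Grhl3-null library.

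A further comparison looked at droplets that passed the limits on genes and UMIs but had more than 7% mitochondrial UMIs, with 81 and 90 such droplets in WT and 148 and 170 in Grhl3-null. Such droplets can be damaged or dying cells. Trp53inp1 was at 14.5, 15.3, 15.8 and 13.4 CPM in them (WT 1, WT 2, Grhl3-null 1 and Grhl3-null 2), against 3.55, 3.59, 3.50 and 3.84 CPM in kept cells. It was higher in all 4 libraries, with a log2 fold change of 1.94 ± 0.16 (edgeR adjusted p = 3.5e-06). Pmaip1 was lower in all 4, at 4.64, 2.55, 4.86 and 3.15 CPM, with a log2 fold change of -1.06 ± 0.23 (edgeR adjusted p = 0.0032). Cdkn1a (0.52), Sesn2 (0.53) and Mdm2 (0.30) rose and Bax fell (-0.20), so that 6 of 9 members were called where 34.5% of 15854 genes were, 17.2% higher and 17.3% lower. Trp53inp1 and Pmaip1 kept their calls with each library left out. The Bax call was lost without any 1 library (-0.13 to -0.24), with RLE size factors (-0.17) and with DESeq2 (-0.17). Sesn2 was lost without either WT library (0.58 and 0.47) or Grhl3-null library 1 (0.38), Mdm2 without WT library 2 (0.19) or either Grhl3-null library (both 0.33), and Cdkn1a without Grhl3-null library 1 (0.36, edgeR adjusted p = 0.093).

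The make-up of these droplets differed from that of kept cells. The summed level of 15 gut markers was 4.22 to 11.04 times that of kept cells in the 4 libraries, and that of 15 notochord markers 2.10 to 4.12 times. That of 15 surface ectoderm and border markers was 1.76 to 3.04 times. With each droplet assigned to its best class, a step that returned the own class of 82.4% of kept cells, gut-like droplets made up 21.0%, 15.6%, 40.5% and 38.8% of the droplets above the limit and 5.06%, 4.55%, 8.26% and 8.05% of kept cells. Mesenchyme 2-like droplets made up 22.2%, 24.4%, 17.6% and 22.4% of the droplets above the limit, against 7.36%, 8.15%, 8.41% and 9.02% of kept cells. With the class as a term and no filter on low counts, an alternative added after these values were seen that changes both choices together, Trp53inp1 remained higher (log2 fold change 0.82 ± 0.22, edgeR adjusted p = 0.0056) and Bax lower (-0.24 ± 0.05, edgeR adjusted p = 0.00063). The other 7 members were not called, and Cdkn1a (-0.24) and Pmaip1 (0.27) changed sign. Without the filter alone, of the 6 calls that of Sesn2 was lost (0.51). Among gut-like droplets alone Trp53inp1 was at 32.8, 37.4, 17.4 and 18.2 CPM above the limit against 10.1, 10.1, 11.1 and 13.2 CPM below it. 

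The last comparison asked whether the other members were higher in the same cells as Cdkn1a. With each cell thinned to 7500 UMIs, 616 cells had at least 2 Cdkn1a UMIs (Cdkn1a-high), 1499 had 1 and 18083 had none. The Cdkn1a-high share was 3.17% and 3.15% in the WT libraries and 2.93% and 2.93% in the Grhl3-null libraries. Cells were compared within library and class, in 15 combinations of 5 classes with 515 Cdkn1a-high and 5673 Cdkn1a-free cells. Cdkn1a chose the cells and is not tested. The CPM given for the 2 states are sums over the used classes of a library, and the classes have unlike shares in the 2 states. In WT library 1 the Cdkn1a-high cells included 43 gut-like and 47 NMP-like cells, against 175 and 669 cells without Cdkn1a. The log2 differences were fitted within library and class. All 15 combinations come from the same 2 pools, and the test treats them as separate blocks.

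Ccng1 was at 30.9, 51.3, 44.4 and 55.9 CPM in Cdkn1a-high cells (WT 1, WT 2, Grhl3-null 1 and Grhl3-null 2) and at 23.4, 23.5, 22.2 and 23.4 CPM in cells without Cdkn1a. These summed levels were higher in all 4 libraries. Within library and class Ccng1 was higher by 0.97 ± 0.16 on the log2 scale (edgeR adjusted p = 1.2e-05), and ranked 70 of 7165 genes by p. Phlda3 was at 63.8, 91.3, 50.9 and 63.4 CPM against 26.7, 36.2, 39.7 and 38.0 CPM, summed levels that were again higher in all 4. Within library and class Phlda3 was higher by 0.74 ± 0.18 on the log2 scale (edgeR adjusted p = 0.0048). Without WT library 2 the Phlda3 difference was 0.61 with an edgeR adjusted p of 0.069. Mdm2 (0.30), Bbc3 (0.33) and Bax (0.14) did not pass the test, so 2 of 5 tested members were called, both higher, where 4.48% of 7166 genes were, 2.92% higher and 1.56% lower.

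Trp53inp1, Pmaip1 and Sesn2 had too few counts for the filter. Summed over classes, Trp53inp1 was at 16.4, 18.5, 14.1 and 16.1 CPM in Cdkn1a-high cells against 2.80, 2.91, 4.44 and 4.98 CPM. Without the filter, its log2 difference within library and class was 1.65 ± 0.26 (edgeR adjusted p = 5.8e-08), in a fit whose median over all genes was -0.12. Pmaip1 (0.37) and Sesn2 (0.35) did not pass it. Without the class as a term 7 of 8 members were called higher, among them Trp53inp1 (2.82), Pmaip1 (1.06) and Mdm2 (0.48). That fit compares cells of different classes, and the share of all genes it called was not counted, so its count is not a result about the members. The largest changes were listed among called genes that passed the filter and had a mean of at least 10 CPM. Among these, the largest rises in Cdkn1a-high cells were in Mixl1 (1.64), Sct (1.54), Msx2 (1.53), Tlx2 (1.43), Pax3 (1.33), Hoxd8 (1.23), Cyp26a1 (1.19), Cldn9 (1.18), T (1.16) and Amph (1.13). The largest falls were in Meis1 (-1.33), Dab2 (-1.23), Pmp22 (-1.18), Apoe (-1.08) and Fgfr2 (-1.04). None of these 15 genes is on a p53 list used here, but Trp53inp1, Pmaip1 and Sesn2 could not enter because the filter left them out.

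**Figure D5:**
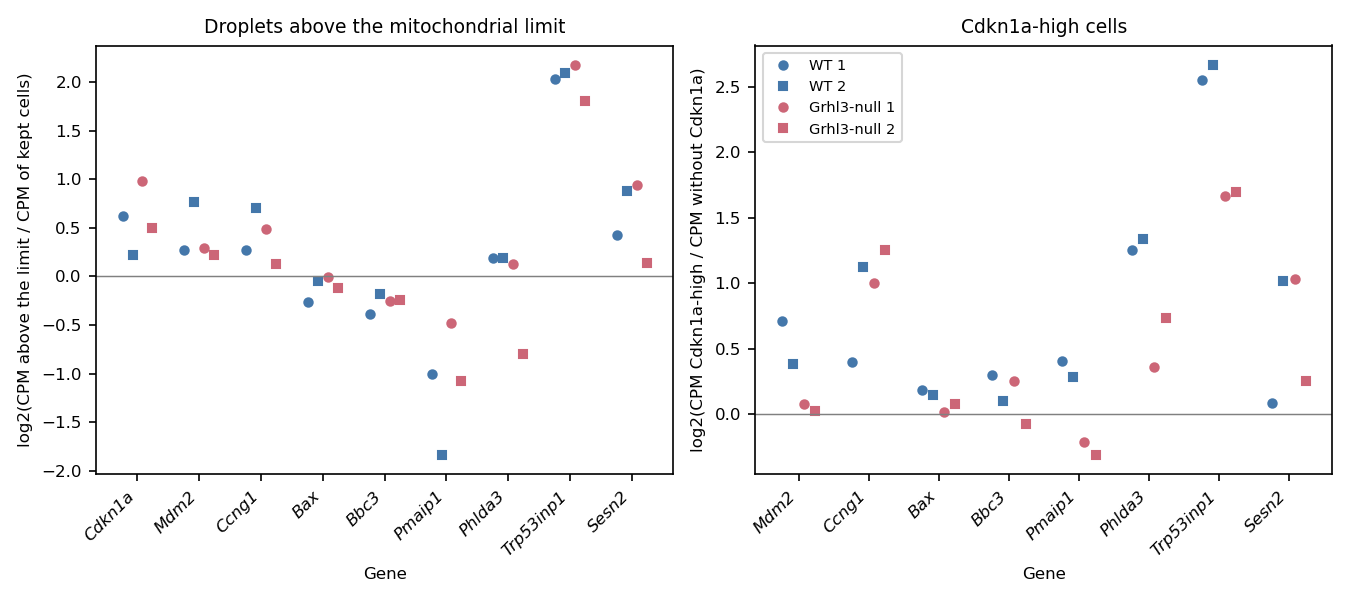
Log2 ratio of CPM in each library (vertical axes) for droplets above the mitochondrial limit against kept cells (left) and for Cdkn1a-high cells against cells without Cdkn1a (right), with genes on the horizontal axes. Trp53inp1 is the highest gene in both panels and Ccng1 and Phlda3 lie above 0 in all 4 libraries at right, while Pmaip1 lies below 0 in all 4 libraries at left. The ratios are of UMIs summed over classes, whose shares differ between the groups compared.

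Other genes of the pathway did not move in 1 direction between the genotypes. Over all genes, 17.1% were called higher and 18.5% lower, as given above. Of 13 p53 regulators tested over all cells, Atr (0.09) and Usp7 (0.11) rose and Trp53 (-0.14) and Trp63 (-0.23) fell on the log2 scale. Trp53, the gene of p53 itself, was at 225 and 223 CPM in WT and 207 CPM in both Grhl3-null libraries. Of 37 other p53 targets 7 rose, among them Gdf15 (0.72) and Pidd1 (0.19), and 7 fell, among them Btg2 (-1.02), Epha2 (-0.43) and Aen (-0.14), with a median of -0.03 against 0.00 for all genes. Btg2 was a leading gene of the pre-somitic mesoderm-like cluster, which held 9.27% and 9.62% of WT cells and 0.0826% and 0.0837% of Grhl3-null cells. Of the WT cells in this cluster 496 and 484 were female and 1 and 1 male, although 1259 and 1206 WT cells were male. The part of this difference in cell share in the fall of Btg2 was not tested. Of 17 other genes of the Bcl2 family and caspases 3 rose, Bmf (0.15), Bcl2l11 (0.15) and Hrk (0.84), and 5 fell, among them Bid (-0.27) and Bak1 (-0.22). Of 5 other Cdk inhibitors Cdkn2b alone was called (-1.85).

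Within classes these lists were also mixed. In the neuroepithelium-like class 0 of 11 regulators and 9 of 33 other targets were called, 2 higher and 7 lower, where 25.6% of all genes were called. In the NMP-like class 3 of 11 regulators and 6 of 33 other targets were called, 2 of the latter higher and 4 lower, where 17.7% of all genes were. In the SE/NPB-like class, with 13.8% called, 2 of 12 regulators rose and 4 of 32 other targets fell. In droplets above the mitochondrial limit 10 of 36 other targets rose, among them Perp (1.31), Gdf15 (2.46) and Plk2 (0.74), and 6 fell, where 17.2% of all genes rose and 17.3% fell. The median of these targets was 0.28 against -0.03 for all genes, and Trp53 fell by 0.64 on the log2 scale. That fit had no class term, although the make-up of the droplets differed from that of kept cells. The part of this make-up in the values of the list was not tested. In Cdkn1a-high cells 2 of 13 other targets rose, Btg2 (0.66) and Zmat3 (0.56), and none fell, where 2.92% of all genes rose.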

How the data were processed

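Cells of 5 WT and 3 Grhl3-null embryos were pooled by genotype and sequenced as 2 droplet libraries each. The authors deposited raw UMI counts per gene and barcode, made with Cell Ranger against mm10 according to the submitters' processing notes. Kept barcodes had 3000 or more genes, 7500 or more UMIs and no more than 7% of UMIs from mitochondrial genes, and libraries shared 5 to 7 barcodes with each other. Doublets were not removed, and removal of the 5% of kept cells with the highest Scrublet score (scanpy 1.11.5) was an alternative. Replicate libraries of a genotype differed by more than counting error (chi-square over its degrees of freedom, 7.774 in WT and 13.56 in Grhl3-null).

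Clusters were made in R 4.3.3 with sctransform 0.4.2 followed by Seurat 5.3.0 (3000 variable features less 14 p53 genes, 30 components, 20 neighbours, resolution 0.4), and named from 15 markers per cell type. Counts were summed per library, or per library and class with at least 20 cells in every library, and compared with edgeR 4.0.16 (quasi-likelihood test, TMM, filterByExpr, Benjamini-Hochberg over all genes tested, called at 0.05). DESeq2 1.42.0 was an alternative. Male cells had at least 2 Y-linked and at most 2 Xist UMIs, female cells at least 3 Xist and at most 1 Y-linked UMI. The main edgeR comparisons were tested on simulated counts first, with 200 planted changes of 2 on the log2 scale, larger than most values here. All 200 were recovered over all cells and within a class. For a class against the other cells 178 were recovered, for the mitochondrial limit 180 and for the Cdkn1a states 135. The alternative fits and the fits by sex were not tested in this way. The members, lists and tests were chosen with earlier results of these data known. All 9 members are named, with the 3 genes most similar to each over the classes (mean of at least 10 CPM) and any list gene that passed a test. The 10 largest rises and 5 largest falls in Cdkn1a-high cells are also named, among called genes with a mean of at least 10 CPM.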

Additional observations from a re-analysis of the deposited data

Results flagged for a closer look

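A test of the difference itself separated the genotype effect of a class from that of the other cells for 18 of 126 pairs of a member and a class, where 5.89% of all pairs were called (log2, class minus other cells, edgeR quasi-likelihood test). The make-up of the other cells differed between the genotypes, and its part was not tested. In the neuroepithelium-like class the pairs called were Phlda3 (1.47), Cdkn1a (-1.61), Pmaip1 (-1.002), Sesn2 (0.53) and Bbc3 (0.34). At resolution 0.8, 45.03% and 48.5% of the WT cells of this class and 0.177% and 0.323% of its Grhl3-null cells fell into another cluster. In the neuroepithelium-like class at resolution 0.8 the genotype effects on Cdkn1a (-0.26) and Pmaip1 (-0.22) were not called. Sesn2 was lost without WT library 1 (0.41) or Grhl3-null library 2 (0.47), and Bbc3 without WT library 2 (0.31) or Grhl3-null library 2 (0.12). In the SE/NPB-like class they were Phlda3 (0.43), Cdkn1a (0.32), Bbc3 (0.4150), Ccng1 (0.3250) and Mdm2 (0.24), and in the NMP-like class Phlda3 (-0.95) and Pmaip1 (0.37). The gut-like class differed for Cdkn1a (0.38) and Bax (-0.12), the notochord-like class for Cdkn1a (-0.55), the paraxial mesoderm-like class for Phlda3 (-0.25) and Pmaip1 (0.63), and the mesenchyme 1-like class for Pmaip1 (2.17). Pmaip1 in the mesenchyme 1-like class was lost without any 1 library, at 1.86 to 2.40. Calls were also lost without 1 or more of the libraries for Cdkn1a, Bbc3, Ccng1 and Mdm2 in the SE/NPB-like class, for Cdkn1a in the notochord-like, Bax in the gut-like and Phlda3 in the paraxial mesoderm-like class.

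The genotype effect differed between male and female cells (log2, male minus female) for Phlda3 (0.69), Cdkn1a (-0.49), Bbc3 (0.22), Bax (-0.16) and Ccng1 (-0.16) over all cells. In that test 37.5% of 16165 genes were called, so the number of members called is not a result about them. Within classes the genotype effect differed between the sexes for Phlda3 (1.59) and Bbc3 (-0.44) in NMP-like cells, for Phlda3 (-0.98) in neuroepithelium-like cells, and for Phlda3 (0.66) and Cdkn1a (-0.56) in SE/NPB-like cells. The shares of genes called in these classes were 14.5%, 21.9% and 13.3%. The Phlda3 difference in neuroepithelium-like cells has the sign opposite to that in the other 2 classes and rests on 40 and 42 WT male cells. Sex and embryo cannot be told apart in these pools.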

How the results depend on the processing

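The rise of Mdm2 over all cells was the sole member called higher, and no member was called higher without a filter on low counts, with DESeq2, with all barcodes, with doublets removed, at a mitochondrial limit of 5% or in female cells (0 in each, and 0 to 1 with a library left out). Within classes, pairs called higher numbered 1 with DESeq2 and 2 with doublets removed, in female cells and at resolution 0.8 (2 to 5 with a library left out, against 4). DESeq2 gave no adjusted p for Cdkn1a and Phlda3 in the notochord-like class. Pairs called lower numbered 10 with DESeq2 and 12 in male cells (15 to 24 with a library left out, against 19). Differences between a class and the other cells numbered 5 to 9 higher with a library left out, against 12, and 5 to 7 lower, against 6, with 3 lower without a library term. Above the mitochondrial limit, members called higher numbered 1 with a class term and no filter and 1 to 3 with a library left out, and those called lower numbered 1 with RLE size factors, with DESeq2, with the class term and no filter and with any library left out. In Cdkn1a-high cells 7 members were called higher without a class term and 1 to 2 with a library left out.

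Directions turned for Phlda3 over all male cells (0.20) and in male cells of unnamed cluster 1 (0.61), and for Mdm2 in male neuroepithelium-like cells (-0.0084). Over all cells they also turned for Trp53inp1 without Grhl3-null library 2 (-0.053, range 0.070 to -0.053 with a library left out), at a mitochondrial limit of 5% (-0.10) and in female cells (-0.069), for Sesn2 in female cells (0.039), for Bbc3 in male cells (0.048) and at WT class shares (0.0365), and for Ccng1 in female cells (0.0315) and at WT class shares (0.0026). Above the mitochondrial limit they turned for Phlda3 without Grhl3-null library 2 (0.053, range -0.25 to 0.053) and, with the class term and no filter, for Cdkn1a (-0.24) and Pmaip1 (0.27). The cause was not tested.

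With the replicate number as a block, the calls over all cells stayed at 1 higher and 4 lower, and the pairs within classes numbered 6 higher and 23 lower. The labels give the numbers no shared source. Over genes, the deviations of WT 1 and Grhl3-null 1 from the mean of their genotype had a correlation of 0.227. With 2 libraries per genotype the other pair mirrors this value. Whether same-numbered libraries share a source was not tested. The share of all genes called was counted in the main settings alone, so the member counts of this section have no such share beside them. Low counts limit Pmaip1, Trp53inp1 and Sesn2 in small classes, and each genotype is 1 pool.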
